A study of Mus musculus with 6 samples.

Results

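The genes described here encode the proteasome and the factors that assemble, activate or inhibit it. They were chosen by name, as every gene whose symbol starts with *Psma*, *Psmb*, *Psmc*, *Psmd*, *Psme*, *Psmf* or *Psmg* followed by a digit, without the named pseudogenes. This gave 50 of the 55421 genes in the count table. Earlier results of these data were known when the genes were chosen. The RNA came from C2C12 cells, a mouse myoblast line that fuses into myotubes, at differentiation day 4. The normal group (C2C12-CUG5, 3 libraries) was stably transfected with a *GFP* plasmid carrying 5 CUG repeats, and the DM1 group (C2C12-CUG200, 3 libraries), a model of myotonic dystrophy type 1, with the same plasmid carrying 200 CUG repeats. The repeats lie downstream of *GFP* in the plasmid and not in the endogenous *Dmpk* gene, both groups were selected with G418, and the sources do not say how many transfections the 3 biological replicates of a group represent, so that the p-values measure the spread between these libraries, which may be technical in part. The comparison asked whether the transcripts of the main protein-degrading complex differed between DM1 and normal myoblasts when myotubes started to form.

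The proteasome is a barrel-shaped protease that degrades proteins tagged with ubiquitin. Its core particle stacks rings of α subunits, which form the gate, on rings of β subunits, of which *Psmb5*, *Psmb6* and *Psmb7* carry the active sites. A regulatory particle caps the barrel, with a base of ATPases that unfold the substrate and a lid that removes the ubiquitin chain. In immune cells, or after interferon, the active subunits are replaced by *Psmb8*, *Psmb9* and *Psmb10*, which gives the immunoproteasome. In skeletal muscle the complex breaks down myofibrillar proteins during atrophy. The factor *Nfe2l1*, which acts through antioxidant response elements, is known to raise proteasome genes together when the complex is inhibited.

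The libraries held between 61707889 and 80957325 counts, where a count stands for 75 aligned bases and a fragment commonly gave 4 counts. The skeletal muscle markers *Des* and *Myog* were abundant in every library, while *Ptprc*, *Adgre1*, *Cd3e*, *Epcam* and *Krt5*, which mark leukocytes and epithelium, had 0 counts in all of them. Of the 9 muscle markers, 7 fell in the DM1 group and 0 rose at an adjusted p under 0.05 by edgeR, beside 8.73% and 7.13% of all tested genes. The fusion genes *Mymk* and *Mymx* did not pass the threshold, with log2 fold changes of -0.55 and 0.23 (adjusted p = 0.304 and 0.0732, edgeR). *Mymx* was higher in every DM1 library than in any normal one, beside 17.9% of all tested genes. The summed level of the 9 markers lay between 11914 and 13129 CPM (counts scaled to a common library size) in the normal libraries and between 6194 and 8301 CPM in the DM1 libraries. The 8 markers of undifferentiated cells summed to between 589 and 605 CPM in the normal and between 612 and 653 CPM in the DM1 libraries, with *Cd34* and *Id2* higher and 0 lower past the same threshold. The other 6 of the 8 had log2 fold changes below 0, of which *Myf5*, *Id3*, *Ccnd1* and *Mki67* did not overlap between the groups, beside 19.3% of all tested genes, and *Cd34* alone went from 69.6 ± 9.62 to 137 ± 16.6 CPM (SD, n = 3 each). The 4 epithelial markers summed to between 5.31 and 6.40 CPM in the normal and between 9.41 and 9.64 CPM in the DM1 libraries, with *Krt14* higher past the threshold. The 5 leukocyte markers, mostly *Cd68*, summed to between 2.83 and 3.84 CPM and between 3.15 and 4.39 CPM, and the 3 endothelial markers to at most 0.429 CPM and 0.0941 CPM. The part of these marker differences in the results on the proteasome genes was not tested. In bulk RNA, fewer cells of a type and less RNA per cell cannot be told apart.

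To show what the promoters of these genes hold, the letters TGACNNNGC, the core of an antioxidant response element, were searched on both strands in RefSeq promoter windows of GRCm38.p6, which run from 250 bases before to 50 bases after a gene's start. Windows were found for 42 of the 50 genes. The letters occurred in 6 of the 45 windows (13.3%), beside 12.4% of all 32851 windows of the same length. CCAAT, the box bound by NF-Y, was in 15 of the 45 windows (33.3%), beside 37.4% of all windows. The 6 matches are given below as descriptions of sequence and not as binding sites, on the strand of the gene, with the motif in capitals. In *Psmc6*, *Psmd12* and *Psme4* the capitals show it as GCNNNGTCA because it lies on the other strand.
*Psmb5* chr14:54618024-54618052: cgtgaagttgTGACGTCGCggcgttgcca
*Psmb6* chr11:70525338-70525366: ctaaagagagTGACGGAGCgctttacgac
*Psmc6* chr14:45329587-45329615: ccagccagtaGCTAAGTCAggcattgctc
*Psmd9* chr5:123228149-123228177: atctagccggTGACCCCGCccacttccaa
*Psmd12* chr11:107479278-107479299: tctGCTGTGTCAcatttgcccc
*Psme4* chr11:30771758-30771786: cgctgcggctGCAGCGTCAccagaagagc
These 6 genes, which belong to the core particle, the regulatory particle, the assembly factors and the activators, did not share a direction. Their log2 fold changes ranged from -0.26 for *Psme4* to 0.36 for *Psmc6*, and edgeR called 0 of the 6, beside 7.13% of all tested genes higher and 8.73% lower (adjusted p under 0.05; at an unadjusted p under 0.05, *Psmc6* was higher and *Psme4* lower), while DESeq2 called *Psmc6* higher.

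Per length, the core and regulatory subunits mostly lay above the assembly factors and the activators, though the activator gene *Psme2*, at 86.6 TPM in the normal group, lay above *Psma3*, *Psmb5*, *Psmd3*, *Psmd11* and *Psmd13*. In TPM, the transcript measure that accounts for length, the 7 standard β subunits had group means between 67.3 for *Psmb5* and 352 for *Psmb3* in the normal group, and between 77.4 and 368 for the same genes in the DM1 group. Among the α subunits *Psma7* was the most abundant, at 243 ± 23.0 TPM (SD, n = 3) in the normal and 288 ± 20.8 TPM (SD, n = 3) in the DM1 group. The ATPases ranged from 109.5 TPM for *Psmc5* to 365 TPM for *Psmc3* in the normal group. The lid ranged from 50.8 TPM for *Psmd3* to 378 TPM for *Psmd8*. The assembly factors were lower, with a median of 23.8 TPM and a highest mean of 39.9 TPM for *Psmg1* in the normal group. Of the inducible β subunits *Psmb10* had 11.9 TPM, near *Psme2b* at 10.8 TPM, and the others were under 1 TPM.

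**Figure D1:**
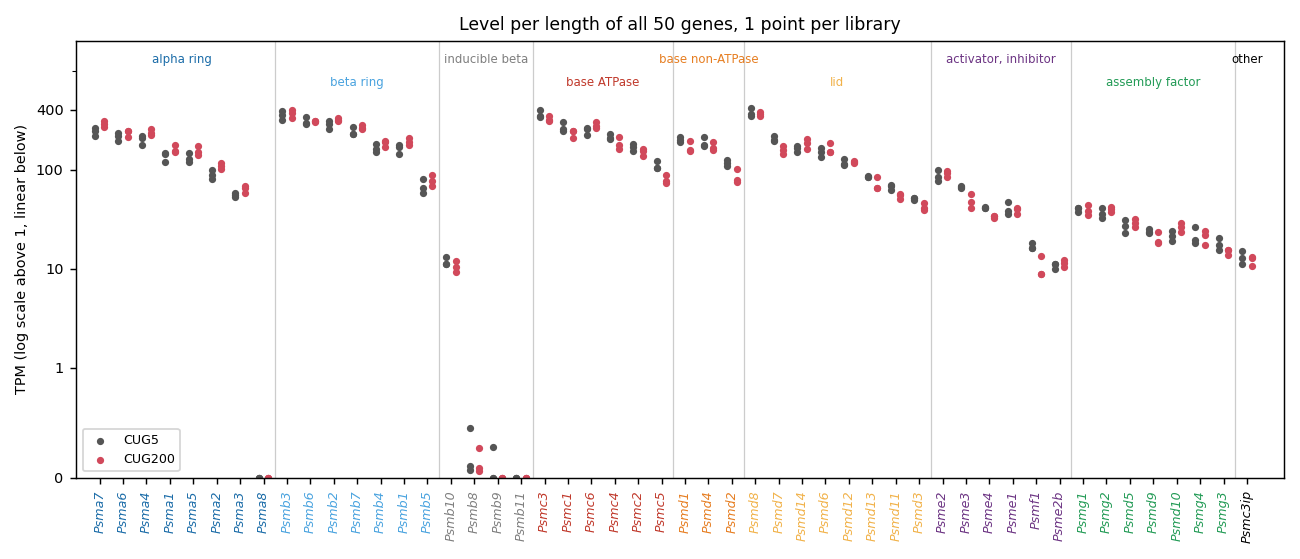
TPM of the 50 genes in each of the 6 libraries, grouped by role (normal group, CUG5, in grey; DM1 group, CUG200, in red; the axis is logarithmic above 1 and linear below). The means of the standard core and regulatory subunits lie between 41.7 and 378 TPM and those of *Psmb10* at 11.9 and 10.6 TPM, and *Psmb8*, *Psmb9*, *Psmb11* and *Psma8* below 1 TPM.

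For the comparison of the groups, 46 of the 50 genes passed the filter on low counts, and *Psma8*, *Psmb8*, *Psmb9* and *Psmb11* did not. By the quasi-likelihood test of edgeR, adjusted after Benjamini and Hochberg over all 19005 tested genes, 2 of the 46 rose in the DM1 group, *Psma2* and *Psma7*, where 7.13% of all tested genes rose. Another 4 fell, *Psmf1*, *Psmc5*, *Psme3* and *Psmd2*, where 8.73% of all tested genes fell. These are 4.35% and 8.70% of the tested members, neither above its background. No member changed by more than 1 on the log2 scale with an adjusted p under 0.05 (0 genes, beside 2.18% of all tested genes; at an unadjusted p under 0.05 without the cutoff on the fold change, edgeR gave 14 higher and 6 lower members, or 30.4% and 13.0%, beside 14.7% and 16.0% of all tested genes). The differences were thus small, with log2 fold changes from -0.53 for *Psmf1* to 0.43 for *Psmd10*. The median over the members was 0.10, beside 0.02 over all tested genes. After the trend with length and GC content was removed, as described below, these medians were 0.016 and -0.006, with 23 of the 46 members above 0. DESeq2 on the same counts called 8 members higher, with *Psma1*, *Psma4*, *Psma5*, *Psmb1*, *Psmc6* and *Psmd10* added to *Psma2* and *Psma7*, and the same 4 lower. These are 17.4% and 8.70% of the members, beside 9.90% and 11.1% of all genes tested by DESeq2. The calls depended on single libraries. Without DM1 library 3, edgeR called 13 members higher (28.3%, beside 8.52% of all genes in that fit) and 4 lower (8.70%, beside 10.7%). The 13 were *Psma1*, *Psma2*, *Psma3*, *Psma4*, *Psma5*, *Psma7*, *Psmb1*, *Psmb4*, *Psmb7*, *Psmc6*, *Psmd10*, *Psmd14* and *Psmg2*. Without DM1 library 1 it called 1 higher, *Psma2*, and 4 lower, *Psmc5*, *Psmd2*, *Psmd7* and *Psmf1*, beside 1258 higher and 1376 lower of all 19661 genes in that fit. Without normal library 2 it called 0 higher and only *Psmf1* lower, and without normal library 1, normal library 3 or DM1 library 2 it called 0 in either direction (at an unadjusted p under 0.05, 8 higher and 5 lower members for normal library 2, 10 and 5 for normal library 1, 4 and 4 for normal library 3, and 14 and 5 for DM1 library 2). Over all genes those fits called fewer as well, from 2.74% (without normal library 3) to 3.35% (without normal library 2) of genes higher and from 2.45% to 3.90% lower in the same fits. No share of all genes at an unadjusted p under 0.05 is given for these fits, so the member counts at that threshold have no background.

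**Figure D2:**
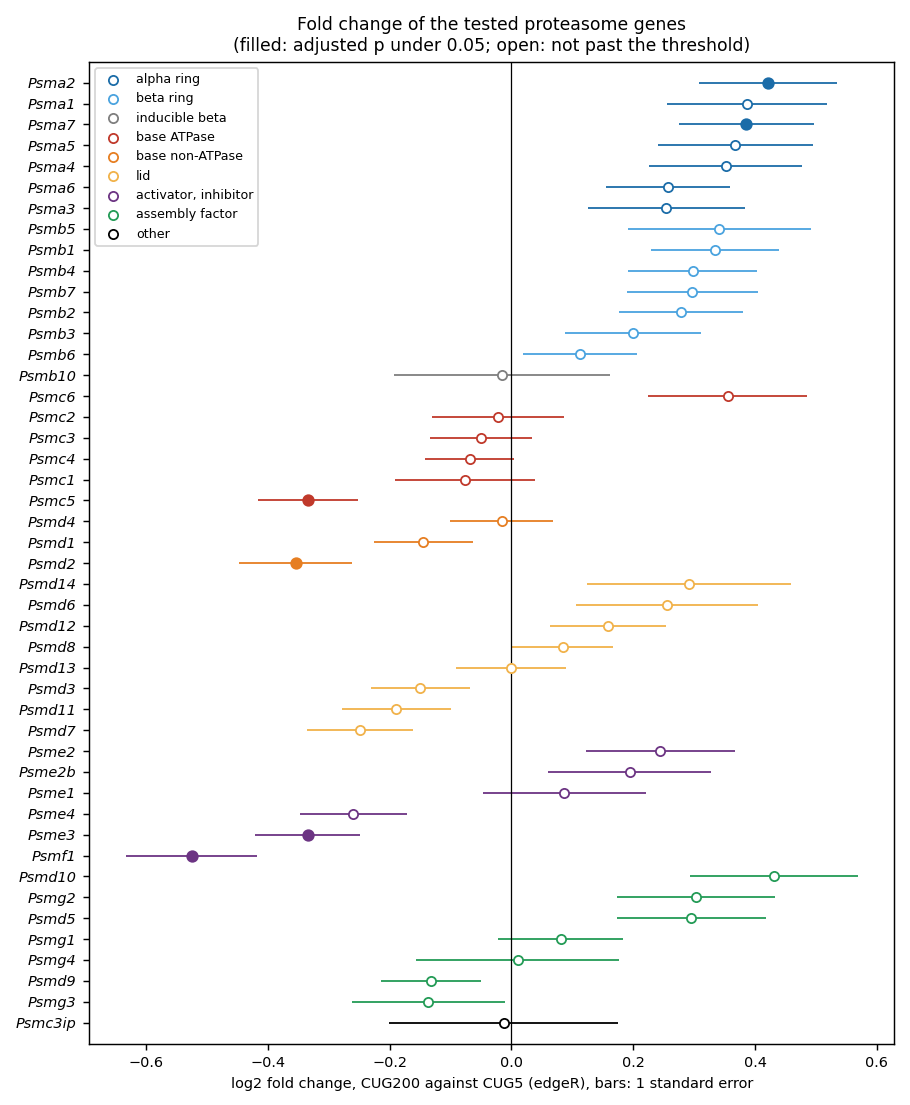
Log2 fold change of the DM1 against the normal group for the 46 tested genes, sorted by role, with 1 standard error (edgeR; filled points have an adjusted p under 0.05). All 14 core particle genes lie right of 0, from 0.11 to 0.42, while 12 of the 17 regulatory particle genes lie left of it.

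The genes of the core particle were higher in the DM1 group in direction, and 2 of 14 passed the threshold by edgeR, beside 7.13% of all tested genes, and 6 of 14 by DESeq2, beside 9.90%. All 14 tested α and standard β subunits had a log2 fold change above 0, beside 51.4% of all tested genes, with a median of 0.32 and a range from 0.11 to 0.42. The median was 0.16 after the trend of the fold change with length and GC content, described below, was removed. In 11 of the 14 the lowest DM1 library exceeded the highest normal one, beside 17.9% of all tested genes. The margins were narrow for *Psma4*, *Psmb2* and *Psmb3*, as given below. At an unadjusted p under 0.05, 10 of the 14 were higher, beside 14.7% of all tested genes. *Psma2* (ENSMUSG00000015671), an α subunit gene at chromosome 13 (GRCm38, 14613240 to 14674236, plus strand), had 160.3, 155 and 147 CPM in normal libraries 1, 2 and 3 and 241, 195 and 183 CPM in DM1 libraries 1, 2 and 3. The groups did not overlap, and DM1 library 1 was the highest. Its log2 fold change was 0.42 (standard error 0.113, adjusted p = 0.0378, edgeR), or 1.34-fold, and the adjusted p ranged from 0.0131 to 0.134 over the leave-one-out fits. *Psma7* (ENSMUSG00000027566), on the minus strand of chromosome 2 from 180036374 to 180042433, had 139.8, 138 and 127 CPM in the normal and 205, 166 and 158 CPM in the DM1 libraries. Again DM1 library 1 stood highest, and the groups did not overlap. The log2 fold change was 0.39 (standard error 0.110, adjusted p = 0.0467, edgeR), with an adjusted p from 0.0182 to 0.1597 over the leave-one-out fits. Without robust estimation *Psma7* was not past the threshold, at a log2 fold change of 0.39 (adjusted p = 0.0556, edgeR).

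The other α subunits did not pass the threshold by edgeR, while DESeq2 called *Psma1*, *Psma4* and *Psma5* higher, beside 9.90% of all tested genes. *Psma1* had 97.2, 103.6 and 87.7 CPM in the normal and 151, 119 and 107.5 CPM in the DM1 libraries (log2 fold change 0.39, adjusted p = 0.0808, edgeR), without overlap. *Psma4*, *Psma5* and *Psma6* did not overlap either, with log2 fold changes of 0.35, 0.37 and 0.26 (adjusted p = 0.0939, 0.0846 and 0.126, edgeR). Those of *Psma5* and *Psma6* were 0.22 and 0.17 without DM1 library 1. The gap was narrow for *Psma4*, with 144.3 CPM in its lowest DM1 and 143.1 CPM in its highest normal library. The near-identical copies *Gm12989* and *Gm8394* held counts of up to 9.5% and 7.0% of those of *Psma5*. With them added its log2 fold change was 0.36 (adjusted p = 0.0959, edgeR). *Psma3* was the tested α subunit with the smallest difference, with 66.9, 75.2 and 71.3 CPM in the normal and 93.0, 93.8 and 67.6 CPM in the DM1 libraries. DM1 library 3 lay within the range of the normal group there. The pseudogene *Gm13835* is identical to *Psma3* over 665 bases and held between 2927 and 5662 counts per library, so that the counts of *Psma3* are uncertain, and with its near-identical copies added its log2 fold change went from 0.25 to 0.34 (adjusted p = 0.166, edgeR). *Psma8*, the α subunit gene of the testis, had 0 counts in every library, which allows at most 12 counts of the 61707889 in the shallowest of them (3 fragments, counting error only).

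Among the β subunits, the genes of the 3 active sites differed in how clearly the groups were apart, and none passed the threshold. *Psmb5* (ENSMUSG00000022193), the chymotrypsin-like subunit on the minus strand of chromosome 14 from 54614119 to 54618022, had 39.98, 31.5 and 35.3 CPM in the normal and 55.6, 40.3 and 39.4 CPM in the DM1 libraries. Its lowest DM1 library lay below its highest normal library. The log2 fold change was 0.34 (standard error 0.150, adjusted p = 0.165, edgeR), and 0.25 (adjusted p = 0.324, edgeR) when the counts of the microRNA gene *Mir686*, which overlaps *Psmb5* on the same strand, were added. With the copy *Gm3375* added instead, it was 0.30 (adjusted p = 0.181, edgeR). It ranged from 0.18, without DM1 library 1, to 0.43, without normal library 1, over the leave-one-out fits. *Psmb6*, the caspase-like subunit, had 151.7, 143 and 143 CPM in the normal and 173, 158 and 142 CPM in the DM1 libraries. Of the core particle genes it had the smallest log2 fold change, 0.11 (adjusted p = 0.469, edgeR). *Psmb7*, the trypsin-like subunit, had 181, 166 and 167 CPM in the normal and 241, 205 and 185 CPM in the DM1 libraries, without overlap (log2 fold change 0.30, adjusted p = 0.0982, edgeR). Of the structural β subunits, *Psmb1* had 172, 193 and 160.2 CPM in the normal and 245, 209 and 208 CPM in the DM1 libraries (log2 fold change 0.33, adjusted p = 0.0621, edgeR). *Psmb2*, *Psmb3* and *Psmb4* had log2 fold changes of 0.28, 0.20 and 0.30, without overlap between the groups (adjusted p = 0.102, 0.267 and 0.0935, edgeR). Without DM1 library 1 those of *Psmb3* and *Psmb4* were 0.09 and 0.19. The gap was narrow for *Psmb2*, with 163.3 CPM in its lowest DM1 and 161.5 CPM in its highest normal library. It was narrow for *Psmb3* too, at 173.6 and 171.7 CPM.

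Of the inducible and tissue-specific β subunits, *Psmb8*, *Psmb9* and *Psmb11* were near or under the floor of 12 counts in both groups, while *Psmb10* was measured in every library. *Psmb8* had 8, 4 and 28 counts in the normal and 7, 8 and 13 counts in the DM1 libraries. *Psmb9* had 14 counts in normal library 2 and 0 in the 5 others. *Psmb11*, the thymus-specific subunit, had 0 counts in all 6. No difference was detectable at this depth for these genes. *Psmb10*, which replaces *Psmb7*, was the only inducible subunit that passed the filter, with 7.08, 9.43 and 7.97 CPM in the normal and 9.94, 7.13 and 7.13 CPM in the DM1 libraries. The groups overlapped (log2 fold change -0.02, standard error 0.177, adjusted p = 0.968, edgeR). Per length, *Psmb10* had 11.9 ± 1.19 TPM in the normal group (SD, n = 3), beside 241 ± 24.3 TPM of *Psmb7*. Of 13 genes of antigen presentation and the interferon response, 2 rose, *B2m* and *Isg15*, and 3 fell, *H2-K1* and *Ifit1* among them (edgeR, beside 7.13% and 8.73% of all tested genes). *H2-K1*, a classical class I antigen-presenting molecule, fell from 39.6 ± 2.05 to 29.5 ± 3.39 CPM (SD, n = 3 each; log2 fold change -0.43, adjusted p = 0.0281, edgeR).

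In the regulatory particle 0 of 17 genes rose and 2 fell by edgeR, beside 7.13% and 8.73% of all tested genes (at an unadjusted p under 0.05, 1 higher and 3 lower, beside 14.7% and 16.0%). The shares that fell were near the background. The median log2 fold change was -0.05, and 5 genes lay above 0. In 6 of the 17 all DM1 libraries lay under the lowest normal library, beside 19.3% of all tested genes. Of the 6 ATPases, *Psmc5* (ENSMUSG00000020708), on the plus strand of chromosome 11 from 106256154 to 106263120, had 89.9, 83.8 and 84.3 CPM in the normal and 72.6, 63.9 and 68.2 CPM in the DM1 libraries. All DM1 libraries lay below all normal ones. The log2 fold change was -0.33 (standard error 0.0813, adjusted p = 0.0269, edgeR), and the adjusted p ranged from 0.0209 to 0.112 over the leave-one-out fits. *Psmc6*, another subunit of the same ATPase ring, stood on the other side, with 272, 286 and 255 CPM in the normal and 417, 331 and 292 CPM in the DM1 libraries. Its groups did not overlap, and its log2 fold change of 0.36 was not past the threshold (standard error 0.1304, adjusted p = 0.102, edgeR). Without DM1 library 3 it was 0.46 and past the threshold (adjusted p = 0.0224, edgeR), and without DM1 library 1 it was 0.21. *Psmc1*, *Psmc2*, *Psmc3* and *Psmc4* had log2 fold changes between -0.08 and -0.02, and of these *Psmc4* did not overlap between the groups.

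*Psmd2* (ENSMUSG00000006998), which encodes a large scaffold of the base that holds ubiquitin receptors and shuttle factors, lies on the plus strand of chromosome 16 from 20651652 to 20663414. It had 205, 189 and 204 CPM in the normal and 159, 140.4 and 168 CPM in the DM1 libraries, again without overlap. It fell by 0.35 on the log2 scale (standard error 0.0930, adjusted p = 0.0345, edgeR), with an adjusted p from 0.0147 to 0.142 over the leave-one-out fits. The other large scaffold, *Psmd1*, had 354, 359.9 and 355 CPM in the normal and 324, 302 and 341 CPM in the DM1 libraries, without overlap (log2 fold change -0.14, adjusted p = 0.273, edgeR). *Psmd4*, a ubiquitin receptor, had 168, 155 and 149 CPM in the normal and 163, 149 and 155 CPM in the DM1 libraries, which overlapped. No gene of the lid passed the threshold (0 of 8 by edgeR, beside 7.13% higher and 8.73% lower of all tested genes, with 1 lower at an unadjusted p under 0.05, beside 16.0%, and 0 by DESeq2, beside 9.90% and 11.1%). The 8 genes went both ways, 4 on each side of 0. *Psmd14*, the deubiquitinase of the lid, had 139.6, 148 and 133 CPM in the normal and 210.2, 178 and 126 CPM in the DM1 libraries (log2 fold change 0.29, adjusted p = 0.287, edgeR). DM1 library 3 was below the whole normal group for this gene. Without DM1 library 3 the log2 fold change was 0.47 and past the threshold (adjusted p = 0.0117, edgeR), and without DM1 library 1 it was 0.13. *Psmd7*, its partner in the lid, had 194, 191 and 192 CPM in the normal and 177, 151 and 157 CPM in the DM1 libraries, without overlap (log2 fold change -0.25, adjusted p = 0.0881, edgeR). Without DM1 library 1, *Psmd7* was past the threshold.

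**Figure D3:**
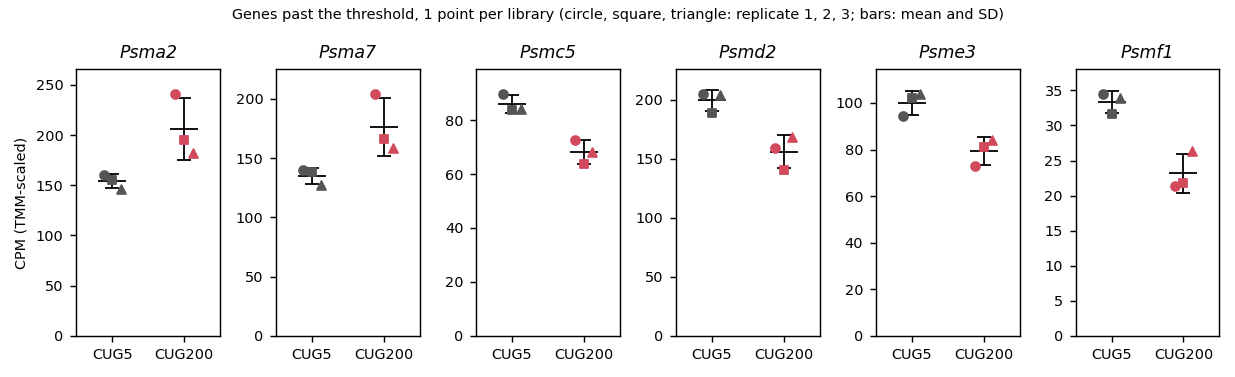
CPM of the 6 genes past the threshold in each library, with the mean and SD of 3 libraries per group on axes that start at 0. In each panel the 3 DM1 libraries lie on 1 side of the 3 normal libraries, above them for *Psma2* and *Psma7* and below them for *Psmc5*, *Psmd2*, *Psme3* and *Psmf1*.

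Among the genes that activate or inhibit the core particle, 2 of 6 fell and 0 rose by edgeR, beside 8.73% and 7.13% of all tested genes (at an unadjusted p under 0.05, 3 lower and 0 higher, beside 16.0% and 14.7%). *Psmf1* (ENSMUSG00000032869), which encodes the inhibitor PI31, lies on the minus strand of chromosome 2 from 151715812 to 151744186. It had 34.6, 31.6 and 33.99 CPM in the normal and 21.4, 21.8 and 26.4 CPM in the DM1 libraries. All DM1 libraries were below the normal ones, and DM1 library 3 was the nearest to them. Its level in the DM1 group was 0.695-fold (log2 fold change -0.53, standard error 0.108, adjusted p = 0.0147, edgeR), which was the largest change of the family in size, and the adjusted p ranged from 0.00431 to 0.0695 over the leave-one-out fits. *Psme3* (ENSMUSG00000078652), the nuclear activator PA28γ on the plus strand of chromosome 11 from 101316213 to 101323537, had 94.3, 102 and 104 CPM in the normal and 72.9, 80.9 and 84.3 CPM in the DM1 libraries. The groups did not overlap. It fell by 0.33 on the log2 scale (standard error 0.0869, adjusted p = 0.0334, edgeR), with an adjusted p from 0.0171 to 0.156 over the leave-one-out fits. With library totals alone in place of TMM factors, *Psme3* was not past the threshold, at a log2 fold change of -0.35 (adjusted p = 0.0568, edgeR).

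*Psme4*, the nuclear activator PA200, had 136, 147 and 152 CPM in the normal and 125, 126 and 111 CPM in the DM1 libraries, without overlap (log2 fold change -0.26, adjusted p = 0.0812, edgeR). *Psme1* and *Psme2*, whose products form the PA28 ring that works with the immunoproteasome, lie near each other on chromosome 14. *Psme1* had 27.9, 24.5 and 21.8 CPM in the normal and 30.4, 23.1 and 25.3 CPM in the DM1 libraries. *Psme2* had 46.6, 40.3 and 44.2 CPM in the normal and 61.4, 48.0 and 45.9 CPM in the DM1 libraries, where DM1 library 1 was the highest. Both overlapped between the groups (adjusted p = 0.721 and 0.219, edgeR). *Psme2b*, a copy of *Psme2* on chromosome 11 with 99.4% identity over 794 bases, had 5.26, 5.72 and 5.18 CPM in the normal and 6.72, 5.81 and 5.94 CPM in the DM1 libraries, without overlap (adjusted p = 0.375, edgeR). The gene *9930111J21Rik1* overlaps *Psme2b* on the same strand. With its counts added, the log2 fold change of *Psme2b* went from 0.19 to 0.31 (adjusted p = 0.0712, edgeR). Reads of *Psme2* and *Psme2b* cannot be assigned with certainty, and summed with *Psme2b*, *Psme2* had a log2 fold change of 0.24 (adjusted p = 0.204, edgeR).

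None of the 7 assembly factors passed the threshold (0 genes by edgeR, 3 higher and 0 lower at an unadjusted p under 0.05, beside 14.7% and 16.0% of all tested genes, and *Psmd10* higher by DESeq2, beside 9.90%). *Psmd10*, also known as gankyrin, a chaperone of the ATPase ring, had the highest log2 fold change of the family, 0.43 (standard error 0.138, adjusted p = 0.0670, edgeR). It had 19.2, 18.6 and 16.7 CPM in the normal and 29.5, 22.2 and 21.7 CPM in the DM1 libraries, without overlap. *Psmd5* and *Psmd9*, the other chaperones of the base, had log2 fold changes of 0.30 and -0.13. The chaperones of the core particle, *Psmg1*, *Psmg2*, *Psmg3* and *Psmg4*, lay at 0.08, 0.30, -0.14 and 0.01. Without DM1 library 1 the log2 fold changes of *Psmd5*, *Psmg2* and *Psmg4* were 0.17, 0.20 and -0.12, and without normal library 1 that of *Psmg1* was -0.0013. *Psmg3*, whose log2 fold change was close to that of *Psmd9* and went to -0.07 without normal library 1, had 10.97, 9.36 and 9.66 CPM in the normal and 9.91, 8.75 and 8.63 CPM in the DM1 libraries. *Psmc3ip* is in the family by its name only, since its product acts in homologous recombination, and its log2 fold change was -0.01.

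**Figure D4:**
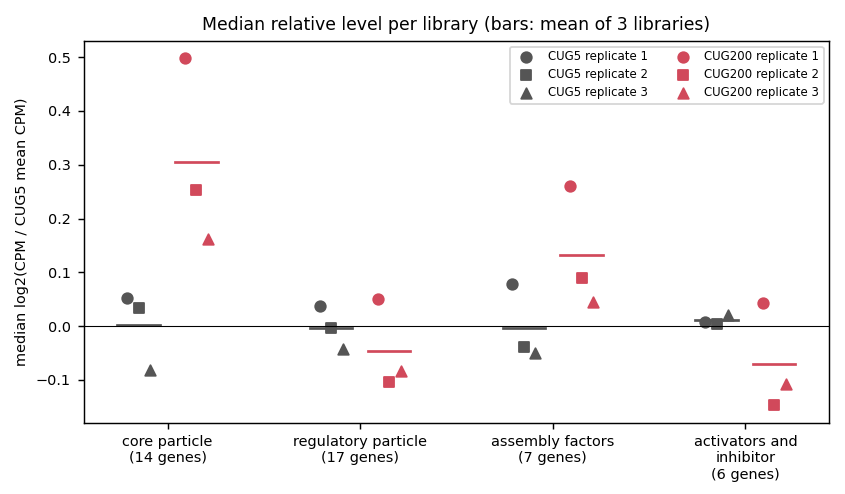
For each library and role, the median over the tested genes of log2 CPM relative to the mean of the normal group (points, replicates 1 to 3; bars, means). For the 14 core particle genes the DM1 libraries lie at 0.50, 0.25 and 0.16 and the normal ones at 0.05, 0.03 and -0.08, while the groups overlap for the 17 regulatory particle genes.

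The core particle genes stood highest in DM1 library 1. Their median relative to the normal mean was 0.50 in DM1 library 1, 0.25 in DM1 library 2 and 0.16 in DM1 library 3, on the log2 scale. In the normal libraries it lay between -0.08 and 0.05. The regulatory particle had medians of 0.05, -0.10 and -0.08 in DM1 libraries 1, 2 and 3 and between -0.04 and 0.04 in the normal libraries, which overlapped. Without DM1 library 1 the median log2 fold change of the core particle genes was 0.21, and all 14 were above 0. Among the genes given by library, the log2 fold change without DM1 library 1 was 0.25 for *Psma1*, 0.05 for *Psmb6* and 0.12 for *Psme2*, and without DM1 library 3 it was 0.39 for *Psma3* and 0.18 for *Psmb6*. Summed over the core particle genes, the level was between 1675 and 1829 CPM in the normal and between 1959 and 2508 CPM in the DM1 libraries. For the 17 regulatory particle genes the sums were between 3060 and 3227 CPM and between 2963 and 3435 CPM.

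The fold changes also moved with the length of the transcripts. Over all tested genes, those with a longest annotated transcript of at most 1500 bases had a median log2 fold change of 0.21, and those above 3000 bases had one of -0.07. The core particle genes are short, with a median of 1220 bases, against 1983 bases in the regulatory particle and 2776 bases over all tested genes. Across the 46 tested members, Pearson's r between the log10 of this length and the log2 fold change was -0.42, beside -0.18 over 18984 tested genes, as a description across genes that share the same libraries. When the trend of the fold change with length and GC content over all tested genes was removed, which was chosen after seeing the data, the median of the core particle genes went from 0.32 to 0.16. Of the 14, 13 remained above 0, and *Psmb6* went to -0.07. The regulatory particle went from -0.05 to -0.08. *Psmf1* was at -0.44, *Psmc5* at -0.44, *Psme3* at -0.31, *Psmd2* at -0.30, *Psma7* at 0.35 and *Psma2* at 0.30 after the removal. Of the other members, *Psma1* went from 0.39 to 0.16, *Psma3* from 0.25 to 0.14, *Psmb5* from 0.34 to 0.20 and *Psmb7* from 0.30 to 0.19. *Psmc6* went from 0.36 to 0.17, *Psmd10* from 0.43 to 0.22 and *Psmd14* from 0.29 to 0.10. In the α ring, *Psma4* went from 0.35 to 0.13, *Psma5* from 0.37 to 0.20 and *Psma6* from 0.26 to 0.04. In the β ring, *Psmb2* went from 0.28 to 0.07, *Psmb3* from 0.20 to 0.08 and *Psmb4* from 0.30 to 0.16. *Psme2* went from 0.24 to 0.07, *Psme4* from -0.26 to -0.15 and *Psmg2* from 0.30 to 0.13.

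**Figure D5:**
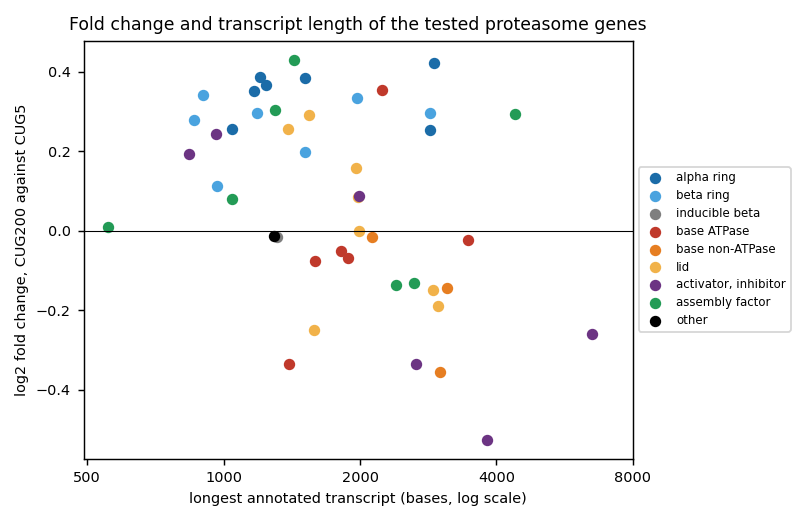
Log2 fold change of the 46 tested genes against the length of their longest annotated transcript (log axis), coloured by role. The α and β ring genes (dark and light blue) lie above 0 at all their lengths, from 859 to 2911 bases, and the lowest point is *Psmf1* at 3809 bases.

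Other genes that work with the proteasome were taken from a list of 32 measured genes of ubiquitin supply, delivery, and proteasome maintenance and transcription. By edgeR, 11 of the 32 fell and 1 rose, with a median log2 fold change of -0.21, beside 8.73% and 7.13% of all tested genes. These genes are long, with a median of 3748 bases, and the median was -0.14 after the trend with length and GC content was removed. The transcription factors *Nfe2l1* and *Nfe2l2*, which control proteasome and antioxidant genes, both fell. *Nfe2l1* had 104.4, 116 and 103.0 CPM in the normal and 89.8, 85.5 and 89.4 CPM in the DM1 libraries (log2 fold change -0.29, adjusted p = 0.0434, edgeR). *Nfe2l2* fell from 258 ± 13.9 to 206 ± 7.98 CPM (SD, n = 3 each; adjusted p = 0.0317, edgeR). After the trend with length and GC content was removed, *Nfe2l1* was at -0.19 and *Nfe2l2* at -0.37. No leave-one-out fit is given for the genes of this list. *Adrm1*, a ubiquitin receptor of the base, fell by 0.36 on the log2 scale (adjusted p = 0.0297, edgeR). *Sem1*, a small lid subunit, and *Pomp*, the chaperone of β ring maturation, had log2 fold changes of 0.40 and 0.27 (adjusted p = 0.122 and 0.152, edgeR). The proteasome-bound deubiquitinases *Usp14* and *Uchl5* had log2 fold changes of -0.12 and 0.04 and overlapped between the groups.

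*Ubb*, which encodes polyubiquitin, and *Rps27a*, which encodes ubiquitin fused to a ribosomal protein, overlapped between the groups, with log2 fold changes of 0.11 and 0.42 (adjusted p = 0.581 and 0.474, edgeR). *Ubqln1*, a shuttle that brings ubiquitinated proteins to the proteasome, fell from 69.6 ± 4.75 to 50.6 ± 2.92 CPM (SD, n = 3 each; adjusted p = 0.0107, edgeR), and *Ube3a*, a ubiquitin ligase, fell from 40.4 ± 5.64 to 26.4 ± 2.15 CPM (adjusted p = 0.0124, edgeR).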

How the data were processed

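The 6 libraries of total RNA were grouped by the sample titles (3 CUG5, 3 CUG200). The authors used trim_galore for trimming, HISAT2 for alignment (GRCm38) and StringTie for quantification, and versions, annotation and strand setting are not given in the sources used here. They deposited counts per gene without normalization, and per library a table of coverage (signal), FPKM and TPM from StringTie. Counts were used for tests, the deposited coverage for the unit of a count (75 bases; at least 99.289% of single-transcript genes within 1 count), and TPM for levels between genes. The deposited FPKM values were not used. Coordinates of the 50 genes were the same in GENCODE M21, where 11 overlap a gene on the opposite strand and 4 one on the same strand, whose reads cannot be told apart without strand.

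Genes were filtered with filterByExpr (minimum count 10), scaled by TMM and tested in edgeR by robust quasi-likelihood fits on the group alone, with p-values adjusted after Benjamini and Hochberg over 19005 genes (threshold 0.05). CPM uses TMM-scaled totals. The alternatives were DESeq2, other scalings, filters, units and overlaps, the replicate block, and each library left out. Near-identical copies (95% identity over 300 bases, blastn) and the length and GC trend were added after seeing the data. The members and lists were chosen with earlier results of these data known. Named in full were the catalytic, inducible and tissue-specific subunits, the activators and inhibitor, the 5 smallest p-values in each direction, the highest and lowest gene of each role, and of the pathway list 7 genes and up to 3 others called in each direction, of which some are not reported here. The tests were tested on simulated data, with no result of that reported here. Versions were limma 3.58.1, DESeq2 1.42.0 and edgeR 4.0.16 under R 4.3.3, and pandas 2.3.3 under Python 3.11.15. Intervals and floors cover counting error only.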

Additional observations from a re-analysis of the deposited data

How the results depend on the processing

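The count of members higher in the DM1 group was 2 by edgeR. It was 8 with DESeq2, 1 without robust estimation, 4 with counts divided by 4, 0 with limma on log2(TPM + 1) or log2(TPM + 0.1), 0 with an absolute log2 fold change over 1 required as well, and 0 to 13 with each library left out in turn. The count of lower members was 4, and it was 0 on both TPM scales (at an unadjusted p under 0.05, 1 higher and 8 lower on each by limma), 0 with the fold change required, and 0 to 4 with each library left out. No share of all genes at the unadjusted threshold is given on the TPM scales, so those member counts have no background. The share of all genes called moved too, from 7.13% higher and 8.73% lower to 9.90% and 11.1% with DESeq2, 6.69% and 8.28% without robust estimation, 10.1% and 11.4% with counts divided by 4, 2.25% and 4.29% on log2(TPM + 1), and 2.28% and 4.47% on log2(TPM + 0.1). The cause of these differences in counts between settings was not tested. With the replicate block, 3 members were higher (*Psma5* was added) and 4 lower. These are 6.52% and 8.70% of the members, beside 6.98% and 7.88% of all genes in that fit. The correlations of deviations between same-numbered libraries were 0.0675, 0.0222 and 0.0263, so that the numbers were not taken as pairs. The log2 fold changes of some members near 0 changed sign. *Psmb6* went to -0.0139 on both TPM scales and to -0.0719 after the length and GC trend was removed. *Psmb10* went to 0.0043 without mitochondrial genes and to between 0.0647 and 0.0984 without normal library 2, DM1 library 2 or DM1 library 3, with 0.0658 for DM1 library 2, over a leave-one-out range of -0.1799 to 0.0984. *Psmd4* went to 0.0032 without mitochondrial genes, 0.0331 without normal library 1 and 0.0145 without DM1 library 2, over a leave-one-out range of -0.042 to 0.0331. *Psme1* went to -0.0455 and -0.0464 on the TPM scales with 1 and 0.1 added, and to -0.0173 without DM1 library 1, over a leave-one-out range of -0.0173 to 0.1809. Over the leave-one-out fits *Psmc2*, *Psmc3ip*, *Psmd13*, *Psmg1* and *Psmg4* also changed sign, within -0.13 to 0.17. After the trend was removed, *Psme2b* went to -0.0372, *Psmg1* to -0.0904 and *Psmg4* to -0.201. The 14 core particle genes were all above 0 in every count fit, with medians from 0.21 (without DM1 library 1) to 0.39 (without DM1 library 3). On both TPM scales 13 of 14 were above 0, and the median was 0.20. The median of all members was 0.10 and ranged from 0.05 to 0.17 over the leave-one-out fits, and was -0.01 on both TPM scales, where the median of all genes was -0.06 and -0.09.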
